A study of Caenorhabditis elegans with 33 samples.

Results

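The small RNAs that came down with HA::ALG-2 were compared with those of the lysate in gravid adult Caenorhabditis elegans, using 1 immunoprecipitate (IP) library and 1 input library, which are 2 of the 18 small RNA libraries and of the 33 samples in the series. Both libraries were taken whole, across the 4 deposited tables. These hold 368 miRNAs and 15366 21U piRNAs, 3640 genes with CSR-1 siRNAs, and 2434 genes or transposons with Mutator siRNAs. ALG-2 is an Argonaute, a protein that holds a small RNA and is guided by it to matching messenger RNAs. The series asks which miRNAs each of the Argonautes ALG-1, ALG-2 and ALG-5 binds and what their loss does to messenger RNA.

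The IP and the input both came from animals with the ok304 allele of alg-2 on chromosome II and the inserted gene alg-2::HA::alg-2 on chromosome IV, so the tagged protein was expressed in worms whose own alg-2 is mutant. The labels do not say how the inserted gene was built or what drives it, and they name whole worms, so fewer cells that hold a miRNA and less of it per cell cannot be told apart. Animals were collected 68 h after the L1 stage at 20 °C. The IP was held on anti-HA beads for 1 h and washed 4 times, and RNAs of 18 to 28 nt were treated to open triphosphorylated ends before ligation. For comparison, 3 other pairs of an adult IP and its input were used, with 1 library each. HA::ALG-1 animals carry alg-1::HA::alg-1 on chromosome IV and the gk214 allele of alg-1, and ALG-1::HA::ALG-2 animals carry alg-1::HA::alg-2 on chromosome IV with that same allele. HA::ALG-5 animals carry alg-5::3xHA::alg-5 on chromosome II and the tm1163 allele of alg-5. Also used were 1 library each of alg-2(ok304) and alg-1(gk214) adults, 3 of wild type (N2) adults, and for 1 value a library of wild type L4 larvae collected at 49 h. An IP from a strain without the tag was not analysed here, and the small RNA tables hold no measure of the tagged protein.

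Several classes of small RNA coexist in the worm. miRNAs are cut as a duplex from a hairpin, of which the Argonaute normally keeps 1 strand, and ALG-1 and ALG-2 are the Argonautes best known for carrying them. 21U piRNAs are bound by the germline Argonaute PRG-1, CSR-1 siRNAs match genes expressed in the germline, and Mutator siRNAs are made by the amplification machinery that silences transposons, pseudogenes and many other genes. Of the miRNA families, miR-35 is made in oocytes and embryos, lin-4 and let-7 time larval development, and miR-51 and miR-58 are among the most abundant of the animal.

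Values are RPM, reads scaled to 1000000 of the library, and ratios are log2 of IP over input after adding 1 RPM to each. The IP held 12200775 reads and the input 11000849. With 1 library per fraction there is no replicate and no test, and the 95% intervals given are exact binomial intervals of the ratio of reads without the added RPM, which cover counting error only. As a yardstick, the largest log2 difference among the 4 adult libraries of the first numbered experiment that were not immunoprecipitated (3 inputs and wild type 1) had a median of 0.65 over miRNAs, and that among the 3 wild type adults a median of 1.16. Wild type 2 and alg-2(ok304) were the shallowest adult libraries, with 1622092 and 1982430 reads, and belong to the second numbered experiment.

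miRNAs took 77.3% of all reads in the IP and 15.8% in the input, so the class was 4.89-fold higher in the IP. Their sum was 772839 RPM in the IP, against 157889 RPM in the input (log2 2.29). The 3 other classes were all lower in the IP. 21U piRNAs summed to 3905 RPM in the IP, against 23310.5 RPM in the input (log2 -2.58, interval -2.59 to -2.56). CSR-1 siRNAs summed to 15856 RPM in the IP, against 118447 RPM in the input (log2 -2.90, interval -2.91 to -2.89). Mutator siRNAs, the largest class of the input, summed to 144476 RPM in the IP, against 440684 RPM in the input (log2 -1.61). Each of these differences was larger than that between any of the wild type adults, whose largest log2 difference was 0.12 for miRNAs, 0.62 for piRNAs, 1.01 for CSR-1 siRNAs and 0.29 for Mutator siRNAs.

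**Figure D1:**
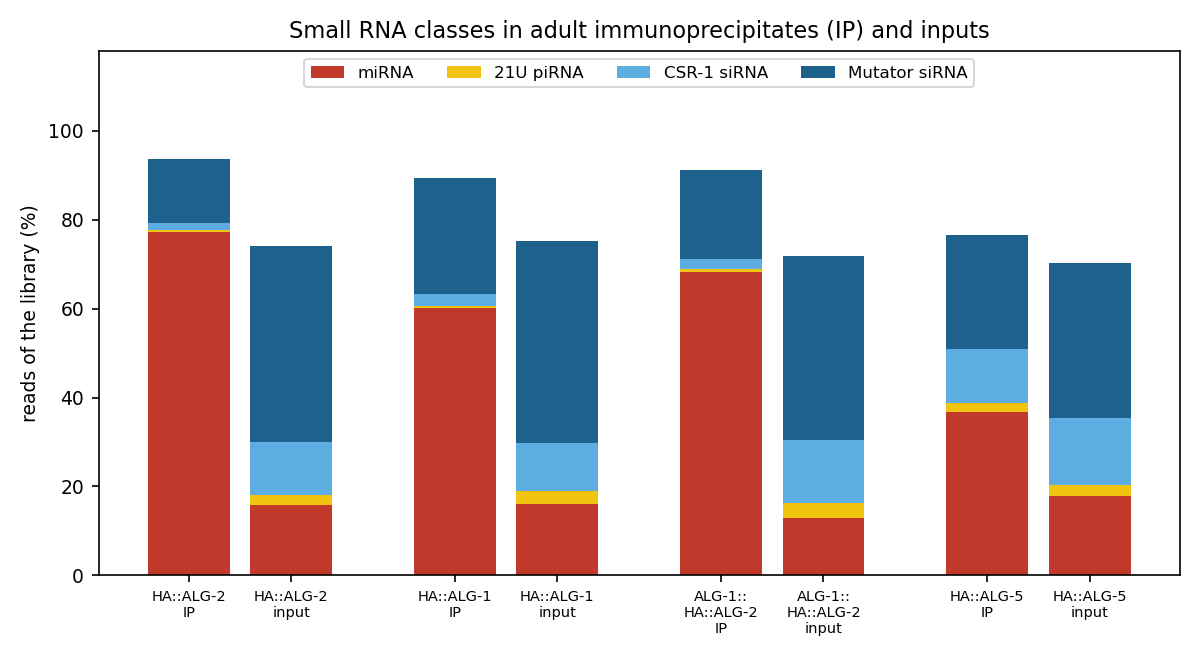
Share of each library's reads (%, stacked bars) in the miRNA, 21U piRNA, CSR-1 siRNA and Mutator siRNA tables, for the IP and input of 4 adult constructs, 1 library per bar. The HA::ALG-2 IP has the tallest miRNA segment, 77.3%, beside 15.8% in its input.

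The share of miRNA in the HA::ALG-2 IP stood above that in the other adult IPs, which was 60.1% for HA::ALG-1, 68.3% for ALG-1::HA::ALG-2 and 36.7% for HA::ALG-5, whereas the 4 inputs ranged from 13.0% to 17.9%. As a ratio to its own input, the miRNA class had a log2 of 2.29 in HA::ALG-2, 1.90 in HA::ALG-1, 2.39 in ALG-1::HA::ALG-2 and 1.03 in HA::ALG-5.

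The excess of miRNA in the HA::ALG-2 IP lay for the most part in 1 family. The 8 mature miRNAs of the miR-35 family summed to 447930 RPM in the IP, against 25726 RPM in the input, a 17.4-fold difference (log2 4.12, interval 4.12 to 4.13). They made up 58.0% of all miRNA reads in the IP and 16.3% in the input, beside 0.780% in 1 library of wild type L4 larvae. Without them, miRNAs summed to 324908 RPM in the IP, against 132163 RPM in the input, a 2.46-fold difference. The family is needed for embryos to develop, and 7 of its hairpins, mir-35 to mir-41, sit side by side on chromosome II according to RefSeq.

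Every member was far higher in the IP. miR-35-3p, the most abundant miRNA of the IP, had 98110.4 RPM in the IP, against 5579 RPM in the input (log2 4.14, interval 4.12 to 4.15). miR-36-3p had 94666 RPM in the IP, against 5573 RPM in the input (log2 4.09). miR-37-3p had 91675 RPM in the IP, against 5818 RPM in the input (log2 3.98). These 3, with miR-39-3p, were the 4 most abundant miRNAs of the IP, while in the input miR-58-3p led and the highest of the family, miR-37-3p, was the fifth. miR-39-3p had 87824 RPM in the IP, against 4074 RPM in the input (log2 4.43). miR-40-3p had 37676 RPM in the IP, against 1985 RPM in the input (log2 4.25). miR-38-3p had 31587 RPM in the IP, against 2425 RPM in the input (log2 3.70). The 2 rarest members showed differences of the same order. miR-41-3p had 6217 RPM in the IP, against 256 RPM in the input, and its log2 of 4.60 was the highest of all miRNAs of at least 10 RPM (interval 4.55 to 4.66). miR-42-3p, which comes from a separate group of hairpins, had 175 RPM in the IP, against 17.4 RPM in the input (log2 3.26, interval 3.11 to 3.55).

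**Figure D2:**
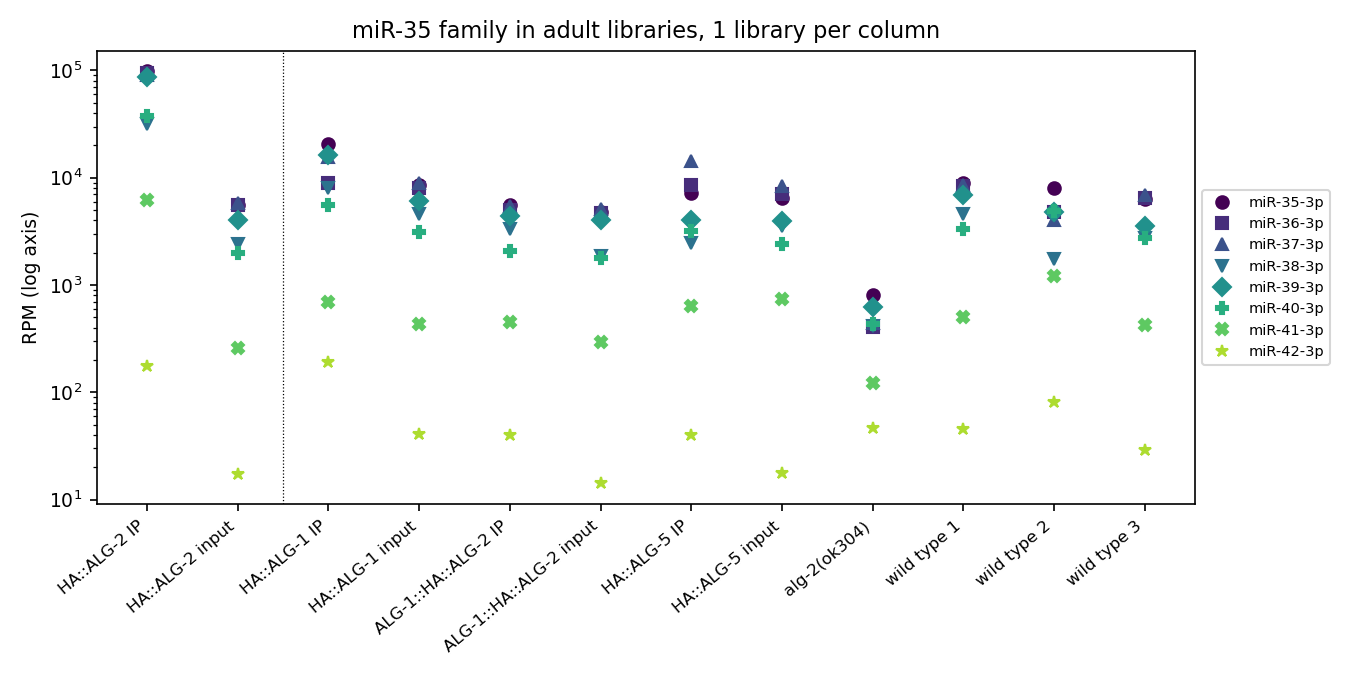
RPM (log axis) of the 8 miR-35 family members in 12 adult libraries, 1 library per column, with the HA::ALG-2 IP and input at the left of the dotted line. In the HA::ALG-2 IP the 4 most abundant members lie between 87824 and 98110.4 RPM, and in the alg-2(ok304) adults the highest member lies at 809 RPM.

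In the other adult IPs the family did not stand out in this way. Its summed log2 of IP over input was 4.12 in HA::ALG-2, 0.93 in HA::ALG-1, 0.22 in ALG-1::HA::ALG-2 and 0.31 in HA::ALG-5, and the 4 inputs lay between 22587 and 39698 RPM. The share of miRNA reads on the family was 58.0% in the HA::ALG-2 IP, 12.6% in the HA::ALG-1 IP, 3.85% in the ALG-1::HA::ALG-2 IP and 11.03% in the HA::ALG-5 IP. Members ranged from 3.26 to 4.60 in HA::ALG-2, from 0.16 to 2.22 in HA::ALG-1, from 0.09 to 1.45 in ALG-1::HA::ALG-2 and from -0.55 to 1.14 in HA::ALG-5. The lowest member in HA::ALG-2 was thus above the highest in each of the others. Each construct has 1 IP and its own input, so these differences between constructs could not be tested.

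The family was also measured in alg-2(ok304) adults without the inserted gene. There it summed to 3287 RPM, against 29265 to 41384 RPM in the 3 wild type adults. It was also low in alg-1(gk214) adults of the same numbered experiment, with 6258 RPM, so a low level was not seen in alg-2(ok304) alone. The HA::ALG-2 input, which carries ok304 with the tagged gene, held 25726 RPM. miR-35-3p had 809 RPM in alg-2(ok304) adults, against 6392 to 8927 RPM in wild type adults. Against the wild type adults of the same numbered experiment, 7 of the 8 members were at least 2-fold lower in alg-2(ok304). Of the 154 miRNAs described next 12 (7.79%) were, and those 12 include these 7 members.

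Across the table, 154 of the 368 miRNAs averaged at least 10 RPM over the IP and the input. Of these, 66 (42.9%) were at least 2-fold higher in the IP and 23 (14.9%) at least 2-fold lower, with a median log2 of 0.68, quartiles of -0.02 and 1.47 and a range from -3.24 to 4.60. The other 65 stayed within a factor of 2. This filter can be passed through the IP alone. With at least 10 RPM required in the input instead, 57 of 152 were at least 2-fold higher and 29 at least 2-fold lower. For 82 of the 154 miRNAs the excess in the IP, and for 28 the deficit, was larger than the largest difference among the 4 adult libraries of the same experiment that were not immunoprecipitated. That makes 110 in either direction. Fewer, 77, went beyond the largest difference among the 3 wild type adults. The counting interval of the ratio left out a log2 of 0 for 142 of the 154.

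The RPM scale counts all small RNAs, and as a share of miRNA reads log2 ratios are lower by about 2.29, the exact shift of a scarce miRNA depending on the added 1 RPM. On that scale 11 of the 154 (7.14%) were at least 2-fold higher in the IP and 102 (66.2%) at least 2-fold lower. The 11 were the 8 members of the miR-35 family, miR-43-3p, miR-1829a-3p and miR-51-5p. With the miR-35 family left out of the miRNA total, an alternative added after seeing the data, the shift is about 1.30, and 19 (12.3%) were at least 2-fold higher and 53 (34.4%) lower.

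**Figure D3:**
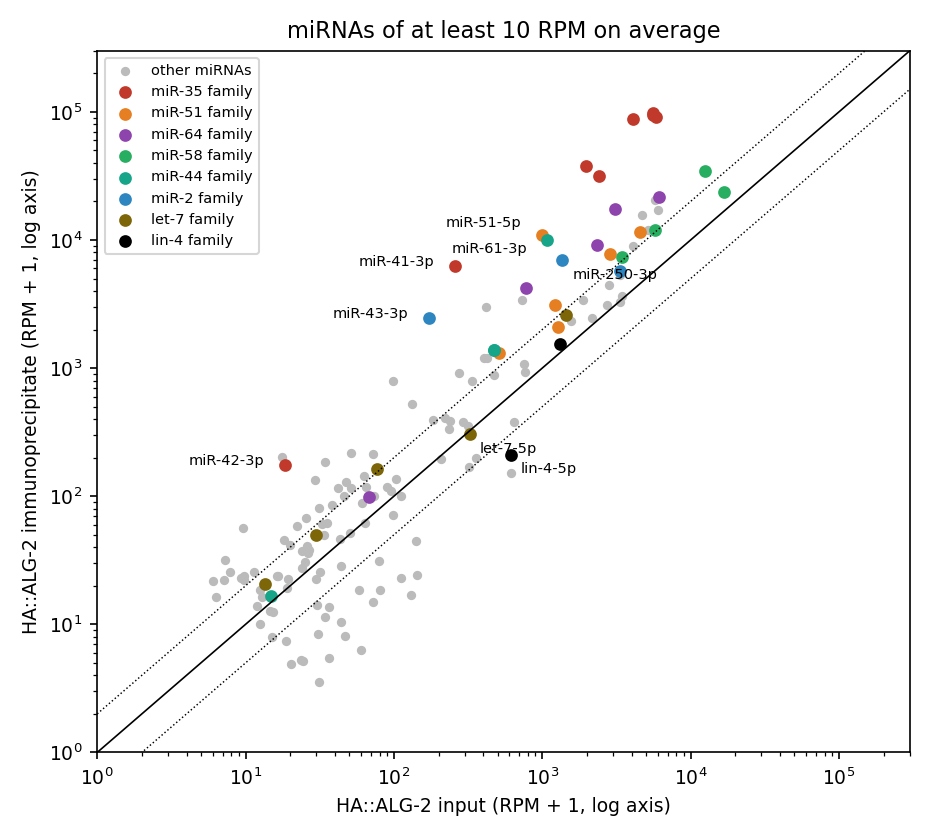
RPM + 1 of each of 154 miRNAs in the HA::ALG-2 IP (vertical, log axis) and the input (horizontal, log axis). Colours mark families, the solid line equal values and the dotted lines a factor of 2. miR-41-3p, miR-39-3p, miR-40-3p, miR-35-3p and miR-36-3p of the miR-35 family lie furthest above the line, and lin-4-5p lies below it.

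The 10 highest ratios went to 7 members of the miR-35 family, all but miR-42-3p, and to miR-43-3p, miR-1829a-3p and miR-51-5p. miR-43-3p, of the miR-2 family, had 2441 RPM in the IP, against 171 RPM in the input (log2 3.83, interval 3.77 to 3.90). Its hairpin lies beside that of miR-42. miR-1829a-3p had 200 RPM in the IP, against 16.7 RPM in the input (log2 3.50), and its namesakes miR-1829b, with 793 RPM in the IP and 97.2 RPM in the input, and miR-1829c, with 55.6 RPM in the IP and 8.64 RPM in the input, had log2 ratios of 3.02 and 2.55. All were above every one of the 3 wild type adults.

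Within other families the members parted. Of the miR-51 family, whose hairpins are needed together for embryonic development, 5 of 6 were at least 2-fold higher in the IP, with a median log2 of 1.36, and as a share of miRNA reads all but miR-51-5p were lower. miR-51-5p had 10919 RPM in the IP, against 993 RPM in the input (log2 3.46, interval 3.43 to 3.49). miR-52-5p, more abundant than miR-51-5p in the input, had 11630.0 RPM in the IP, against 4548 RPM in the input (log2 1.35). The others ranged from 0.71 for miR-54-3p to 1.43 for miR-55-3p. miR-51 and miR-53 are neighbours on chromosome IV, yet miR-53-5p had a log2 of 1.37.

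In the miR-44 family, miR-61-3p stood apart, and was its 1 member that was higher in the IP as a share of miRNA reads too. It had 9930 RPM in the IP, against 1079 RPM in the input (log2 3.20, interval 3.17 to 3.23). miR-44-3p and miR-45-3p had 1378 RPM each in the IP, against 473 RPM each in the input (log2 1.54 for both). Their values were nearly equal in every library, so their reads were not told apart. miR-247-3p had 15.5 RPM in the IP, against 13.8 RPM in the input (log2 0.15, interval -0.15 to 0.48), which counting error alone could give.

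The miR-2 family, counterparts of a large fly family, differed as widely. miR-250-3p, whose hairpin adjoins that of miR-61 on chromosome V, had 6987 RPM in the IP, against 1354 RPM in the input (log2 2.37, interval 2.34 to 2.39). miR-2-3p had 5731 RPM in the IP, against 3365 RPM in the input (log2 0.77). miR-797-5p was listed at 0 in both libraries.

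miR-61-3p, miR-250-3p, miR-51-5p and miR-1829b were also far above the input in HA::ALG-5, a comparison made after their values were seen. miR-250-3p had 91448 RPM in the HA::ALG-5 IP and 902 RPM in its input (log2 6.66), while miR-61-3p had a log2 of 5.55, miR-51-5p of 5.21 and miR-1829b of 4.75 there. In HA::ALG-1 the log2 ratio of miR-250-3p was -2.23 and that of miR-61-3p -0.61. In ALG-1::HA::ALG-2 they were -1.46 and -0.23. In HA::ALG-2 both were positive, and lower than in HA::ALG-5.

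The miR-64 and miR-72 families were higher in the IP as groups in RPM, while as shares of miRNA reads miR-65-5p, miR-66-5p and miR-74-3p were higher and the rest lower. Of 5 members of the miR-64 family 4 were at least 2-fold higher, and all 3 of the miR-72 family. miR-66-5p had 17451 RPM in the IP, against 3083 RPM in the input (log2 2.50, interval 2.48 to 2.52). miR-229-5p had 21680.2 RPM in the IP, against 6113 RPM in the input (log2 1.83). Between these lay miR-65-5p at 2.44 and miR-64-5p at 1.99, the 4 hairpins being neighbours on chromosome III, while miR-63-3p, encoded elsewhere, had a log2 of 0.54. miR-74-3p had 2978 RPM in the IP, against 419 RPM in the input (log2 2.83), its neighbour miR-73-3p a log2 of 2.23, and miR-72-5p, with 20445 RPM in the IP and 5717 RPM in the input, a log2 of 1.84.

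The miR-58 family held the most abundant miRNAs of the input and showed smaller differences, all above 0 in RPM and below 0 as shares of miRNA reads for its 4 members of at least 10 RPM. miR-58-3p had 23903 RPM in the IP, against 16681 RPM in the input (log2 0.52, interval 0.51 to 0.53). miR-80-3p had 34780.2 RPM in the IP, against 12593 RPM in the input (log2 1.47). miR-81-3p and miR-82-3p had log2 ratios of 1.10 and 1.06. miR-90-3p, which belongs to none of these families and was the fourth most abundant miRNA of the input, had 17038 RPM in the IP, against 6059 RPM in the input (log2 1.49), and miR-77-3p had 15645 RPM in the IP, against 4725 RPM in the input (log2 1.73). Summed, the miR-58 family took 10.1% of miRNA reads in the IP and 24.4% in the input. Its 4 remaining members were under 10 RPM: miR-58b-3p had 4.10 RPM in the IP and 8.36 RPM in the input, miR-2209a-3p had 4.59 RPM in the IP and 0.182 RPM in the input, and miR-2209b-3p and miR-2209c-3p did not pass 1.23 RPM in either.

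Among the miRNAs of developmental timing, lin-4-5p was lower in the IP than in the input in RPM. The median log2 was 0.75 over the 5 members of the let-7 family of at least 10 RPM. As shares of miRNA reads lin-4-5p and all 5 of these let-7 members were lower, the latter from -2.38 for let-7-5p to -1.19 for miR-84-5p. lin-4-5p, which ends the programme of the first larval stage, had 210 RPM in the IP, against 611 RPM in the input (log2 -1.54, interval -1.61 to -1.48). Its relative miR-237-5p had 1541 RPM in the IP, against 1324 RPM in the input (log2 0.22). In the other IPs lin-4-5p had a log2 of 1.68 in HA::ALG-1, 2.17 in ALG-1::HA::ALG-2 and -0.18 in HA::ALG-5. The whole miRNA class had a higher log2 in each, of 1.90, 2.39 and 1.03. The lin-4-5p level of the input lay within that of the other unprecipitated libraries of the experiment, 489 to 615 RPM, and below the 2374 RPM of wild type 2.

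let-7-5p, which drives the change from larva to adult, had 303 RPM in the IP, against 323 RPM in the input (log2 -0.09, interval -0.16 to -0.03). miR-48-5p had 2590 RPM in the IP, against 1450.07 RPM in the input (log2 0.84), and miR-84-5p had 163 RPM in the IP, against 76.2 RPM in the input (log2 1.09). Of the 5 members of the let-7 family of at least 10 RPM, miR-84-5p was the 1 at least 2-fold higher, and the other two, miR-793 and miR-794-5p, had log2 ratios of 0.61 and 0.75. miR-241-5p, miR-795-5p and miR-1821 were under 10 RPM, with 7.21, 5.16 and 0.574 RPM in the IP and 5.0, 6.73 and 0.545 RPM in the input.

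Of 4 miRNAs of particular somatic tissues of at least 10 RPM, 1 had a ratio above the median of 0.68 and 3 below it. All 4 were lower in the IP as shares of miRNA reads. miR-1-3p of muscle had 99.3 RPM in the IP, against 45.1 RPM in the input (log2 1.12, interval 0.99 to 1.29), within the spread of the 3 wild type adults, 7.40 to 174 RPM. miR-60-3p of the intestine had 3633 RPM in the IP, against 3469 RPM in the input (log2 0.07). miR-228-5p of glia had a log2 of 0.56 and miR-124-3p of neurons one of -0.05. In the other 2 constructs of the first numbered experiment these 4 ratios were higher, with log2 ratios for miR-60-3p of 2.65 in HA::ALG-1 and 2.42 in ALG-1::HA::ALG-2. The neuronal lsy-6 and miR-791-3p were under 10 RPM, with 6.97 and 9.34 RPM in the IP and 2.82 and 4.55 RPM in the input, and log2 ratios of 1.06 and 0.90.

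Of 3 miRNAs set apart for their known partners or roles, miR-71-5p, linked to long life, had 1197 RPM in the IP, against 422 RPM in the input (log2 1.50). miR-34-5p had 108 RPM in the IP, against 94.6 RPM in the input (log2 0.19). miR-243-3p, known to be loaded into the siRNA Argonaute RDE-1, had 7.42 RPM in the IP, against 29.9 RPM in the input (log2 -1.88, interval -2.35 to -1.66), and its other arm had a log2 of -1.65. In HA::ALG-1 both arms went the other way, at 2.54 and 2.87.

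**Figure D4:**
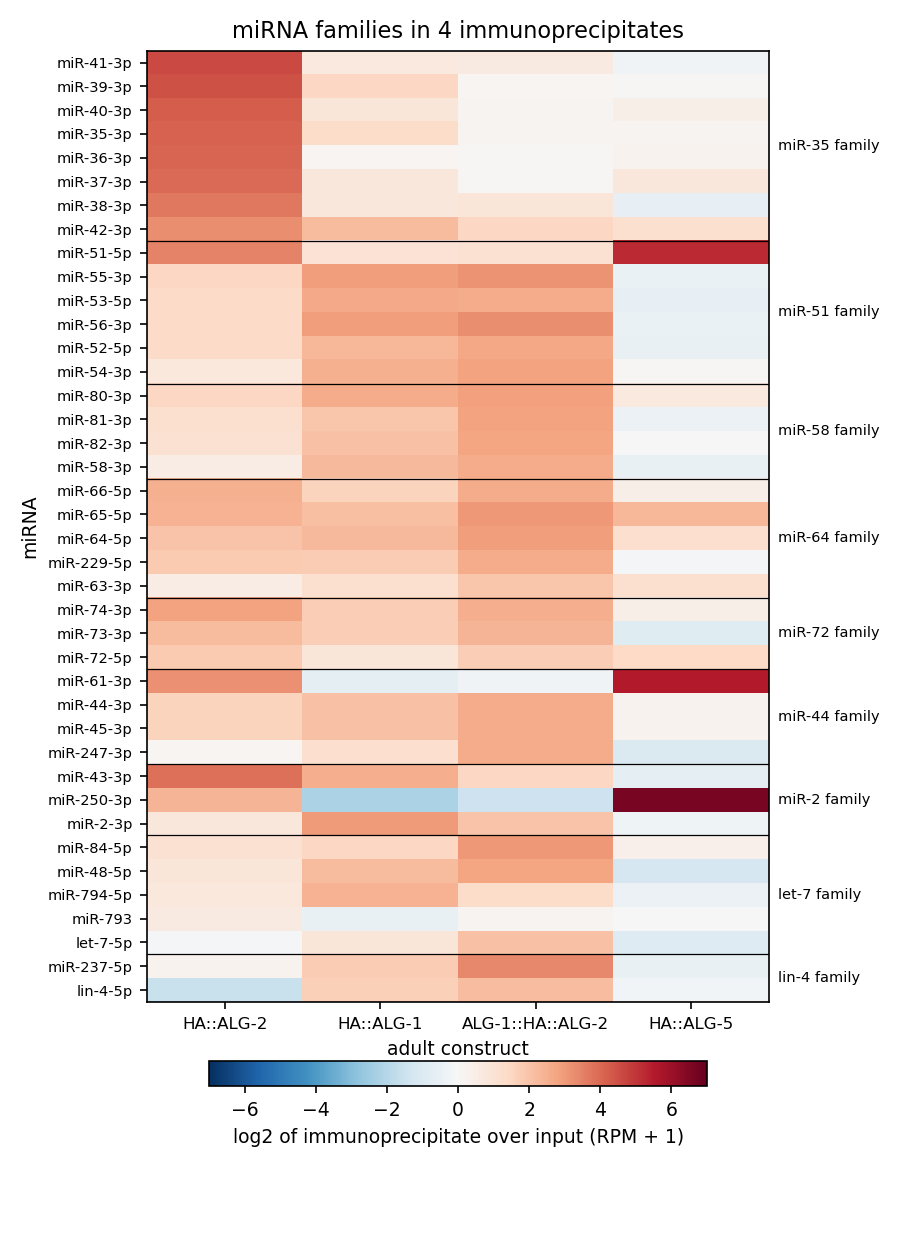
log2 of IP over input (RPM + 1, colour) for the family members of at least 10 RPM, 1 row per miRNA, in the 4 adult constructs. The miR-35 family is darkest in HA::ALG-2, miR-51-5p, miR-61-3p and miR-250-3p are darkest in HA::ALG-5, and the miR-58 family runs from 0.52 to 1.47 in HA::ALG-2 and from 2.62 to 2.85 in ALG-1::HA::ALG-2.

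Over the 154 miRNAs the ratios of the constructs followed each other loosely. Across miRNAs, which are not independent replicates, the log2 ratios of HA::ALG-2 had a Pearson correlation of 0.472 with ALG-1::HA::ALG-2, 0.415 with HA::ALG-5 and 0.213 with HA::ALG-1. Without the miR-35 family, over 146 miRNAs, these were 0.597, 0.467 and 0.283. The order of the constructs depended on the measure. Spearman correlations, which use ranks only, were 0.527 with HA::ALG-5, 0.310 with ALG-1::HA::ALG-2 and 0.156 with HA::ALG-1 over the 154. The median log2 over the same miRNAs was 0.68 in HA::ALG-2, 1.65 in HA::ALG-1, 2.02 in ALG-1::HA::ALG-2 and -0.30 in HA::ALG-5. For levels, log2(RPM + 1), which span a wide range of abundance and are not comparable with ratios, the HA::ALG-2 input correlated at 0.914 with its own IP, 0.990 with the HA::ALG-1 input and 0.993 with wild type 1.

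The lowest ratios belonged to the second strands of hairpins, the strand that Argonautes normally discard. All 10 of the lowest were such minor arms: lin-4-3p, miR-238-5p, miR-38-5p, miR-45-5p, miR-41-5p, miR-77-5p, miR-72-3p, miR-64-3p, miR-74-5p and miR-87-5p, with log2 ratios from -3.24 to -2.17. lin-4-3p had 5.33 RPM in the IP, against 58.9 RPM in the input (log2 -3.24, interval -3.86 to -3.10). miR-238-5p had 2.54 RPM in the IP, against 30.5 RPM in the input (log2 -3.15), while its partner miR-238-3p had 12071 RPM in the IP, against 5171 RPM in the input (log2 1.22).

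For 83 hairpins both arms averaged at least 1 RPM. Taking the arm with more reads in the input as the major one, the major arms had a median log2 of 1.12 and the minor arms of -0.39. The minor arm had the lower ratio of the pair in 67 of the 83, and the median difference, minor minus major, was -1.11. The minor arm's median share of its hairpin was 0.961% in the IP and 3.55% in the input. The same input reads chose the major arm and enter its ratio. With the major arm chosen by the 3 wild type adults instead, the median difference was -1.17, and at a minimum of 10 RPM for both arms, 43 hairpins were left with a median of -2.06.

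The gap was widest in the miR-35 family. Over the 7 of its hairpins with both arms counted, the difference between the arms ran from -7.14 for miR-41 to -3.54 for miR-39. miR-41-5p had 23.4 RPM in the IP, against 141 RPM in the input, so the minor arm was 0.374% of the hairpin's reads in the IP and 35.6% in the input. miR-38-5p had 15.9 RPM in the IP, against 129 RPM in the input (log2 -2.95). miR-39-5p differed from the rest in being higher in the IP, with 407 RPM in the IP, against 219 RPM in the input (log2 0.89).

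In a minority of hairpins the minor arm held its own or gained. Both arms of miR-250 were higher, by 2.37 for the 3p and 2.08 for the 5p arm, as were both of miR-65, by 2.44 for the 5p and 2.18 for the 3p arm. miR-80-5p, the minor arm of an abundant miRNA, had 521 RPM in the IP, against 131 RPM in the input (log2 1.99), above the 1.47 of the major arm. miR-34 had more reads on its 3p arm in both libraries, with 377 RPM in the IP and 647 RPM in the input (log2 -0.78). The minor arm became the more abundant in the IP for 2 hairpins, miR-2208b and miR-2214, both under 10 RPM and named after their values were seen.

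Among features averaging at least 10 RPM, the other 3 classes were lower in the IP almost without exception. Of 282 21U piRNAs that averaged at least 10 RPM, 281 (99.6%) were at least 2-fold lower and 0 at least 2-fold higher, with a median log2 of -2.37 and a range from -4.61 to -0.86. All of the 282 were higher in the input and so passed the filter through the input, which leans this set to low ratios. At a minimum of 1 RPM, where the added 1 RPM weighs more, 2206 piRNAs had a median log2 of -1.66. Of the 15366 listed, 5416 had reads in the IP and 8816 in the input. The most abundant in the IP, 21ur-2799, had 28.4 RPM in the IP, against 144 RPM in the input (log2 -2.30, interval -2.51 to -2.17). The most abundant in the input, 21ur-3502, had 16.1 RPM in the IP, against 166 RPM in the input (log2 -3.29). The next most abundant in the IP, 21ur-6202, 21ur-1689, 21ur-5488 and 21ur-1684, had log2 ratios between -2.26 and -2.13, and 21ur-5410, among the 5 most abundant of the input, one of -3.18.

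**Figure D5:**
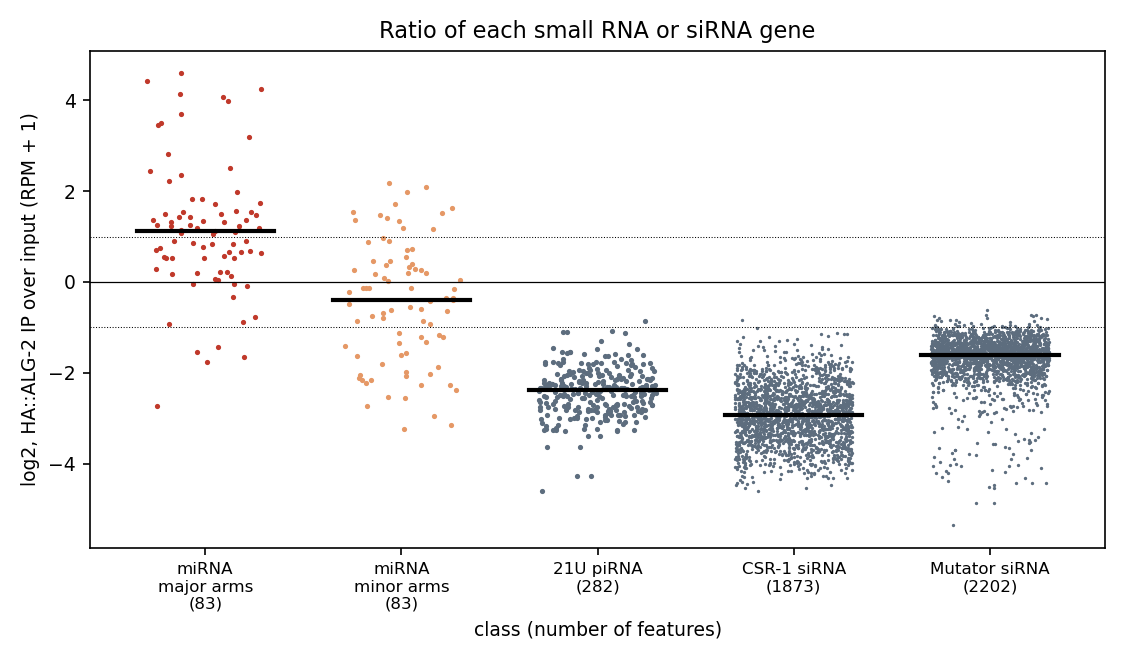
log2 of IP over input (RPM + 1) for each miRNA arm of 83 hairpins, each 21U piRNA and each siRNA gene of at least 10 RPM, 1 point per feature, with the black bar at the median. Major arms centre on 1.12 and minor arms on -0.39, and the piRNAs, CSR-1 siRNA genes and Mutator siRNA genes lie below 0, with medians of -2.37, -2.92 and -1.62.

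CSR-1 siRNAs were the furthest below the input. Of 1873 genes of at least 10 RPM, 1872 (99.9%) were at least 2-fold lower and 0 higher, with a median log2 of -2.92. All of the 1873 were higher in the input, so the filter rested mostly on the input, which leans this set to low ratios. At a minimum of 1 RPM, 3497 of the 3640 genes had a median log2 of -2.59. The most abundant, Y37H9A.3, had 628 RPM in the IP, against 1442 RPM in the input (log2 -1.20, interval -1.24 to -1.16). cls-2, which encodes a microtubule-binding protein of the CLASP family, had 254 RPM in the IP, against 891 RPM in the input (log2 -1.81). imb-2, which encodes an importin, Y50D7A.1 and Y79H2A.3 complete the 5 most abundant of the IP, with log2 ratios of -1.51, -1.56 and -1.77.

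The 5 lowest ratios of this table lay between -4.61 and -4.46. siRNAs of eef-1A.1, which encodes a translation elongation factor, had 3.08 RPM in the IP, against 98.5 RPM in the input (log2 -4.61). Those of cgh-1, an RNA helicase of germ granules, had 1.78 RPM in the IP, against 60.4 RPM in the input (log2 -4.46). egg-6, F54C8.4 and npp-6, a nuclear pore component, had log2 ratios between -4.54 and -4.48. The 5 highest ratios ran from -1.15 to -0.85, for Y69A2AR.17, Y37A1B.17, T09B4.2, F43G6.7 and F56F11.4.

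Mutator siRNAs were the least reduced and made up most of what was not miRNA in the IP. Of 2202 genes, pseudogenes and transposons of at least 10 RPM, 2164 (98.3%) were at least 2-fold lower and 0 at least 2-fold higher, with a median log2 of -1.62. All of the 2202 were higher in the input, so the filter rested mostly on the input here too. At a minimum of 1 RPM, 2430 of the 2434 targets had a median log2 of -1.60. The kinds of target were alike: the median was -1.60 for 1861 genes, -1.67 for 164 pseudogenes and -1.64 for 177 transposons. The most abundant in the IP, F32A11.5, had 2234 RPM in the IP, against 4450 RPM in the input (log2 -0.99). The most abundant in the input, a transposon listed as WBTransposon00000216, had 1824 RPM in the IP, against 6904 RPM in the input (log2 -1.92). Y23H5A.1, K08B4.5 and Y39E4B.14, next in the IP, had log2 ratios between -1.33 and -1.16.

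A few Mutator targets fell far from that median. Y47H10A.5 had 40.4 RPM in the IP, against 1692 RPM in the input (log2 -5.35, interval -5.52 to -5.26). The pseudogene ZK384.4 had 1.87 RPM in the IP, against 83.1 RPM in the input (log2 -4.87). Y17D7B.4, W04B5.2 and F07H5.5 had log2 ratios between -4.87 and -4.51. At the other end ces-2, a transcription factor of programmed cell death, had 18.0 RPM in the IP, against 28.1 RPM in the input (log2 -0.61, interval -0.90 to -0.39). The next were T08H10.4, Y54G2A.19, C44C1.1 and Y54E10A.17, from -0.74 to -0.72.

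The siRNA ratios of HA::ALG-2 ran in a similar order over genes to those of the 2 constructs of the same numbered experiment, while their sizes differed. Over the 1873 CSR-1 genes the Pearson correlation with HA::ALG-1 was 0.913 and with ALG-1::HA::ALG-2 0.906. Over the 2202 Mutator targets it was 0.936 and 0.937. With HA::ALG-5 it was 0.0244 over the CSR-1 genes and 0.341 over the Mutator targets. The medians were -2.92 in HA::ALG-2, -2.28 in HA::ALG-1, -2.77 in ALG-1::HA::ALG-2 and -0.31 in HA::ALG-5 for CSR-1 genes, and -1.62 in HA::ALG-2, -0.82 in HA::ALG-1, -1.07 in ALG-1::HA::ALG-2 and -0.43 in HA::ALG-5 for Mutator targets. Y47H10A.5, the lowest in HA::ALG-2, had -4.70 in HA::ALG-1 and -4.67 in ALG-1::HA::ALG-2. Features within a construct share 1 IP and 1 input, and the 3 constructs share the numbered experiment, whose part in the similar order was not tested.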

How the data were processed

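The authors deposited RPM, reads scaled to the size of each library, in 1 table per class of small RNA. The submitters' processing notes name Cuffdiff for these samples, and the aligner, genome build and annotation are not given in the sources used here. Per the labels, RNA was size-selected on gels and given a polyphosphatase or TAP step. No transcripts or positions were used, and no sequences are shown because none were among the files.

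Columns were tied to samples by their names, which also number the experiments, and 0 columns of other samples were present. The value of 1 read was taken as the commonest low value of the piRNA table. Within 0.02 of a read, 99.5% of piRNA and 94.0% of miRNA values of the IP and 99.3% and 95.1% of the input were whole. The siRNA tables were scaled to totals 1.03% larger in the IP and 1.30% larger in the input, and often hold fractions of reads. The 375 miRNA entries were added up by name to 368. The siRNA tables share 27 genes, counted in each. Features averaging at least 10 RPM over both libraries were kept and a pseudocount of 1 RPM was added. A difference of at least 2-fold is a size and no test. Hairpins within 2000 bp of each other in RefSeq (WBcel235) are called neighbours, and 190 of 218 hairpin names matched. Intervals are Clopper-Pearson intervals conditional on the summed reads, checked on simulated data. They and any reading of low values cover counting error only, since reads carry no molecular identifiers.

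Named were the 10 highest and 10 lowest ratios, the 10 most abundant miRNAs of each library and every member of the listed families, the 5 most abundant piRNAs of each library, and for siRNA genes the 5 most abundant of the IP and the 5 highest and lowest ratios. A further 15 miRNAs were described after their values were seen. Members and lists were chosen with earlier results of these data known, and the arm standing for each family member was set after the tables were seen. Alternatives were other filters, pseudocounts, folds, scales and references. Python packages were numpy, pandas, scipy and matplotlib, with versions kept beside the results.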

Additional observations from a re-analysis of the deposited data

Results flagged for a closer look

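Some miRNAs of at least 10 RPM were at least 2-fold to 1 side of the input in the HA::ALG-2 IP and at least 2-fold to the other side in an IP of the same numbered experiment. There were 12 such miRNAs, 6 higher and 6 lower in HA::ALG-2, of the 154. Each IP is 1 library beside its own input, so these differences were not tested. These are calls on the RPM scale. As a share of miRNA reads the log2 in HA::ALG-2 was 0.74 for miR-1829b, 0.08 for miR-250-3p, -0.19 for miR-250-5p, -0.73 for miR-61-5p, -0.80 for miR-51-3p and -0.93 for miR-230-5p, so none of the 6 was 2-fold higher there.

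Of those higher in HA::ALG-2, miR-250-3p had a log2 of IP over input of 2.37 in HA::ALG-2, -2.23 in HA::ALG-1 and -1.46 in ALG-1::HA::ALG-2. Its other arm, miR-250-5p, had 2.08 in HA::ALG-2, -3.09 in HA::ALG-1 and -1.25 in ALG-1::HA::ALG-2. miR-61-5p, from the neighbouring hairpin, had 1.55 in HA::ALG-2, -2.51 in HA::ALG-1 and -1.46 in ALG-1::HA::ALG-2. miR-1829b had 3.02 in HA::ALG-2, -1.12 in HA::ALG-1 and -1.16 in ALG-1::HA::ALG-2. miR-230-5p had 1.32 in HA::ALG-2 and -1.40 in HA::ALG-1, and miR-51-3p had 1.47 in HA::ALG-2 and -2.25 in ALG-1::HA::ALG-2.

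Of those lower in HA::ALG-2, lin-4-5p had a log2 of -1.54 in HA::ALG-2, 1.68 in HA::ALG-1 and 2.17 in ALG-1::HA::ALG-2. miR-79-5p, at 6.48 RPM in the IP and 17.8 RPM in the input, had -1.33 in HA::ALG-2, 2.56 in HA::ALG-1 and 1.22 in ALG-1::HA::ALG-2. The arms of miR-243 had -1.88 for the 3p and -1.65 for the 5p arm in HA::ALG-2, and 2.54 and 2.87 in HA::ALG-1. miR-55-5p had -2.08 in HA::ALG-2 and 1.38 in HA::ALG-1, and miR-799 had -1.11 in HA::ALG-2 and 3.34 in ALG-1::HA::ALG-2. As shares of miRNA reads in HA::ALG-2 these 6 were lower still, from -4.48 for miR-55-5p to -3.45 for miR-799. The whole miRNA class had a log2 of 1.90 in HA::ALG-1 and 2.39 in ALG-1::HA::ALG-2, so ratios there are lower as shares too. lin-4-5p in both, miR-55-5p in HA::ALG-1 and miR-79-5p in ALG-1::HA::ALG-2 lay below that class value. Some of the 12 depended on the input used for HA::ALG-2. Against the other inputs of the experiment its log2 was -0.44 for miR-243-5p, -0.96 for miR-799 and 0.67 for miR-230-5p, all under 2-fold. Against the wild type adults miR-79-5p had -0.27. The rest of the 12 stayed at least 2-fold from both references.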

How the results depend on the processing

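The 4 classes kept their direction under the alternatives tried. As shares of the 4 classes the log2 of IP over input was 1.95 for miRNAs, -2.92 for piRNAs, -3.24 for CSR-1 siRNAs and -1.95 for Mutator siRNAs. Against the mean of the other 2 inputs of the first experiment these were 2.41, -2.98, -2.98 and -1.59, and against the mean of the 3 wild type adults 2.07, -3.02, -3.13 and -1.39. The miRNA value was 2.15 without miR-35-3p and 1.30 without the miR-35 family, an alternative chosen after seeing the data.

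The count of miRNAs at least 2-fold lower on the RPM scale was 42 at a minimum of 1 RPM, 2 at 100 RPM and 42 with no filter, as more or fewer miRNAs entered. At 4-fold, 23 were higher and 14 lower. On the scale of shares of miRNA, 161 were lower at a minimum of 1 RPM and 40 at 100 RPM, 36 were higher and 209 lower with no filter, 7 were higher against the other inputs, and 2 were higher and 53 lower at 4-fold. With the miR-35 family out of the total, 19 were higher and 53 lower. The difference between minor and major arms was -2.06 at 10 RPM for both arms.

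The median of piRNAs was -1.66 at a minimum of 1 RPM, -2.60 with a pseudocount of 0.1, -2.73 against the other inputs and -2.79 against wild type. No piRNA averaged 100 RPM, so that filter gave no value. For CSR-1 genes the median was -2.59 at 1 RPM, -3.15 at 100 RPM, -3.22 with a pseudocount of 0.1, -2.99 against the other inputs and -3.18 against wild type. For Mutator targets these were -1.60, -1.56, -1.67, -1.56 and -1.36.

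Of 75 miRNAs of at least 10 RPM described here, 15 of them outside the naming rule, 59 differed by at least 2-fold, and 25 of these were higher on the RPM scale and lower as a share of miRNA: miR-1-3p (-1.15), miR-71-5p (-0.79), miR-72-5p (-0.45), miR-45-3p (-0.75), miR-44-3p (-0.75), miR-229-5p (-0.46), miR-64-5p (-0.31), miR-80-3p (-0.83), miR-238-3p (-1.07), miR-90-3p (-0.80), miR-53-5p (-0.92), miR-52-5p (-0.94), miR-73-3p (-0.058), miR-81-3p (-1.20), miR-82-3p (-1.23), miR-56-3p (-0.94), miR-55-3p (-0.86), miR-84-5p (-1.19), miR-77-3p (-0.56), miR-65-3p (-0.077), miR-80-5p (-0.30), miR-51-3p (-0.80), miR-250-5p (-0.19), miR-61-5p (-0.73) and miR-230-5p (-0.93). Neither a pseudocount of 0.1 nor the other inputs or wild type adults as the reference changed a direction among the 59. Sizes did change, and some fell under 2-fold. Against the wild type adults the log2 was 0.40 for miR-52-5p, 0.59 for miR-53-5p, 0.27 for miR-1-3p and -0.27 for miR-79-5p. There it was 0.95 for miR-80-3p, 0.94 for miR-81-3p and 0.87 for miR-82-3p. Other ratios moved away from 0, such as lin-4-5p, at -2.48 against the wild type adults.

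Each fraction has 1 library, so leaving out a replicate does not apply. No paired analysis was possible because the results come from no test. Low piRNA values rest on few reads, 3 reads being 0.246 RPM in the IP and 0.273 RPM in the input.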
